A study of Mus musculus with 12 samples.

Results

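The lysyl oxidase family comprises the genes Lox, Loxl1, Loxl2, Loxl3 and Loxl4. They were taken from an array table of mouse heart tissue as the probesets to which the platform annotation assigns exactly 1 gene symbol, that symbol being 1 of these names. This gave 69 of 212097 such probesets and 5 of 20352 genes. Lox had 11 probesets, Loxl1 had 13, and Loxl2, Loxl3 and Loxl4 had 15 each. A gene's value on an array was the median over its probesets, on a log2 scale.

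The tissue came from C57BL/6J mice 12 weeks of age, 2 weeks after surgery. The infarcted group held 6 samples of the border zone, the tissue beside a myocardial infarct, and the sham group held 6 samples of the same zone after a sham infarct. The series text calls the samples biological replicates. No transgene or drug is named for either group, and the labels do not state how the infarct was made. The question addressed is how the family differed between infarcted and sham tissue in the mouse part of a study of heart repair.

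Lysyl oxidases are secreted enzymes that carry copper and oxidise lysine and hydroxylysine side chains of collagen and elastin to aldehydes. The aldehydes then react with neighbouring chains to form covalent cross-links, which make fibres insoluble and tissue stiff. In a healing infarct, fibroblasts lay down collagen, and its cross-linking is part of how the scar gains strength. Lox and Loxl1 are made with a propeptide that proteases of the Bmp1 type remove. Loxl2, Loxl3 and Loxl4 instead carry scavenger receptor cysteine-rich domains ahead of the shared catalytic domain.

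The 12 arrays were of nearly equal brightness, with medians from 6.997 to 7.06. Every infarcted median (7.045 to 7.058) nevertheless lay above every sham median (6.997 to 7.026). Pairwise correlations of the arrays ran from 0.956 to 0.979, and no 2 arrays were identical. The 7 markers of ventricular cardiomyocytes, none of them dim, had a mean level from 13.13 to 13.20 in sham and from 12.998 to 13.09 in infarcted arrays. The mean level of the 5 atrial markers reached 8.84, 8.01 and 7.78 on infarcted replicates 4, 5 and 6 against at most 7.22 on sham arrays. That mean includes Nppa, which rose by 2.04 without overlap between the groups. Infarcted replicate 5 was also above every sham array for the 6 adipocyte markers (7.48 against at most 5.51), the 6 epicardial markers (6.95 against at most 6.13) and the 6 skeletal muscle markers (6.68 against at most 5.89). Of these markers, 2 atrial, 2 adipocyte, 2 epicardial and 3 skeletal muscle genes were dim.

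Of the 5 members, 4 rose in the infarcted border zone and none fell (limma, adjusted p under 0.05). Of all 20352 genes, 10.1% were called higher and 10.2% lower. Lox rose 13.5-fold, whereas Loxl1, Loxl2 and Loxl3 each rose more than 3-fold and Loxl4 did not pass the test. In the 4 called genes every infarcted array lay above every sham array. Groups that did not overlap in that direction were found in 5.97% of genes. All 4 changes were at least 2-fold, as in 1.28% of genes. In bulk tissue a larger number of cells that express a gene and more RNA per cell cannot be told apart.

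Lox, the founding member of the family, which cross-links both collagen and elastin, lay between 6.31 and 7.12 in sham hearts, with a median of 6.42. In infarcted hearts it lay between 9.73 and 10.65, with a median of 10.35. The lowest infarcted array exceeded the highest sham array by 2.61 on the log2 scale. The means were 6.52 ± 0.30 and 10.28 ± 0.37 (SD, n = 6 arrays per group). The change was 3.76 on the log2 scale (SE 0.17, adjusted p = 3.89e-09, limma with Benjamini-Hochberg adjustment over all genes). This is a ratio of 13.5 (95% interval 10.5 to 17.5), and 1 gene in the table had a larger rise. Sham replicate 6, at 7.12, stood above the other sham arrays, of which the nearest was at 6.51.

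Loxl1, the member most closely tied to elastin and the upkeep of elastic fibres, lay between 7.68 and 8.41 in sham hearts (median 8.07). It lay between 9.58 and 10.03 in infarcted hearts (median 9.72). The groups were separated by a gap of 1.17. The change was 1.68 (SE 0.13, adjusted p = 5.86e-07), a ratio of 3.21 (95% interval 2.65 to 3.88).

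Loxl2, an enzyme known for cross-linking type IV collagen in basement membranes and for a part in fibrosis, lay between 6.59 and 7.52 in sham hearts (median 7.28). In infarcted hearts it lay between 8.66 and 9.02 (median 8.89), again without overlap. Its change of 1.68 (SE 0.14, adjusted p = 1.07e-06) corresponds to a ratio of 3.20 (95% interval 2.62 to 3.91).

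Loxl3, which is needed in development for the palate and the spine, lay between 6.55 and 7.15 in sham hearts (median 6.95). The infarcted arrays lay between 8.49 and 8.92 (median 8.84). The gap between the groups was 1.33. Loxl3 changed by 1.87 (SE 0.12, adjusted p = 1.75e-07), a ratio of 3.67 (95% interval 3.05 to 4.41).

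Loxl4, a further collagen cross-linking member, was the exception. Its sham arrays lay between 5.08 and 6.05 (median 5.62) and its infarcted arrays between 5.24 and 6.47 (median 6.02), so that the groups overlapped. The difference was 0.44 (SE 0.20, 95% interval of the ratio 1.01 to 1.83) with an unadjusted p of 0.0411 and an adjusted p of 0.136 in limma. Infarcted replicate 4, at 5.24, lay below 4 of the 6 sham arrays. Without that array the difference was 0.59 and passed (adjusted p = 0.0248), and it also passed with the mean over probesets as the gene value (0.52, adjusted p = 0.00102) or when dim probesets were left out (0.62, adjusted p = 0.00212). Dim means a mean over the 12 arrays under 5.58, the 30th percentile of all probesets.

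**Figure D1:**
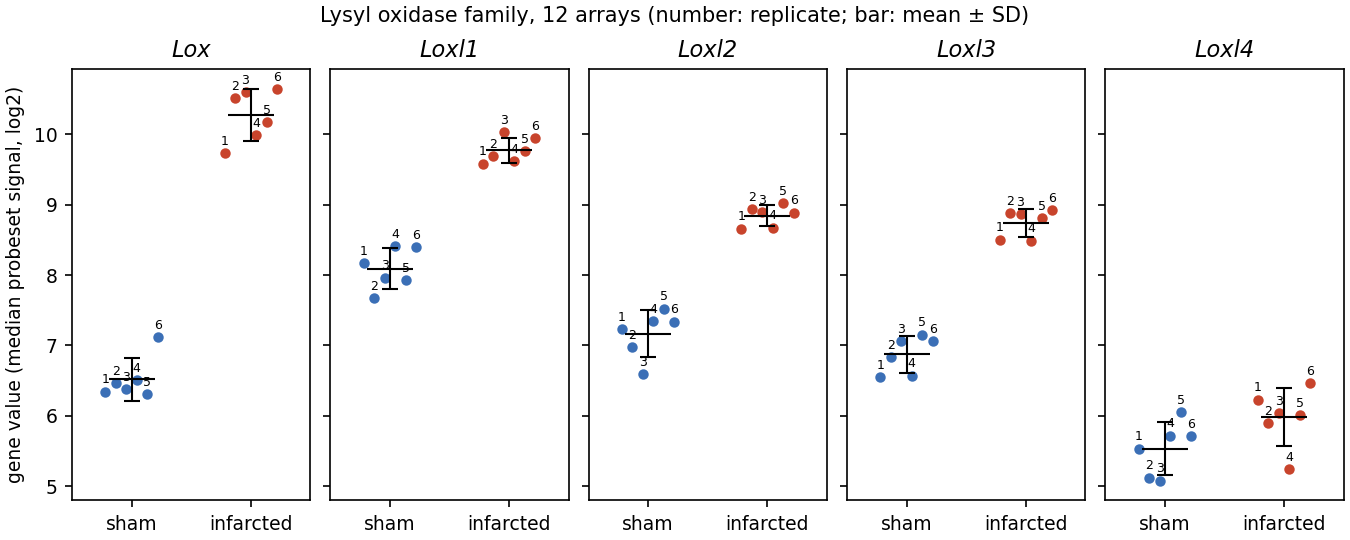
Gene value (median probeset signal, log2) of the 5 lysyl oxidase genes on the 6 sham and 6 infarcted arrays, with the replicate number above each point and the mean ± SD as a bar. The groups do not overlap for Lox, Loxl1, Loxl2 and Loxl3 and overlap for Loxl4. Heights are not to be compared between genes, since each gene has its own probes.

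Among the infarcted arrays, the lowest ones were shared by the 4 genes that rose. Infarcted replicates 1 and 4 were the 2 lowest arrays for Lox (9.73 and 9.99), for Loxl1 (9.58 and 9.62), for Loxl2 (8.66 and 8.67) and for Loxl3 (8.50 and 8.49). The mean level of the 6 myofibroblast markers was also lowest on these arrays, at 8.80 on replicate 1 and 8.74 on replicate 4 against 8.88 to 9.10 on the others. This was not particular to them. Replicates 1 and 4 were also lowest for the elastic fibre genes (9.48 and 9.50, the next at 9.51). The same held for the genes that modify collagen (8.526 and 8.532, the next at 8.57). Genes of lysyl oxidase activation were lowest on replicates 1 (9.18) and 2 (9.26). The 8 fibroblast markers were instead lowest on replicates 4 (9.81) and 2 (9.86), and the 11 fibrillar collagens on replicates 2 (7.92) and 1 (7.95). The part of these genes in the order was not tested. Within the infarcted group the closest pair was Lox and Loxl3, with a Pearson r of 0.92 (exact permutation p = 0.00833) and a Spearman rho of 0.89 (exact permutation p = 0.0333, n = 6 arrays). Over the 20 correlations computed (10 pairs in each group), neither passed, with adjusted p = 0.0833 and 0.222. Without the 2 arrays farthest from the median of Lox, r was 0.91, a value that rests on few arrays. Above the lowest arrays the order was not shared by every pair. Spearman rho was 0.43 for Lox and Loxl2 and 0.43 for Loxl2 and Loxl3 (exact permutation, adjusted p = 0.705 for each), and r was 0.69 and 0.88 (exact permutation, adjusted p = 0.546 and 0.306). Without the 2 arrays farthest from the median of the first gene, r turned to -0.99 and -0.88. So few arrays were left that extreme values of r arise easily. No correlation within the infarcted group passed the adjustment.

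Single probesets showed how evenly each gene moved. Of the 69 probesets of the family, 53 were higher and none lower (limma, adjusted over all probesets). Among all 212097 probesets, 6.96% were higher and 4.60% lower. For Lox 10 of 11 were higher, for Loxl1 11 of 13, for Loxl2 13 of 15, for Loxl3 14 of 15 and for Loxl4 5 of 15. Probesets of a gene were measured on the same arrays and are not replicates of each other.

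Lox, Loxl1, Loxl2 and Loxl3 each had 1 probeset above the dim limit that hardly differed between the groups. For Lox 10 probesets changed by 1.80 to 4.39, while the remaining one lay between 5.73 and 7.35 in sham and between 5.94 and 7.33 in infarcted arrays (difference 0.06, 95% interval -0.66 to 0.77). It was not dim, with a sham mean of 6.57. The probeset of Loxl1 that moved least was bright, with a sham mean of 9.70 and an infarcted mean of 9.78 (difference 0.08), while the differences of the other 12 ran from 0.76 to 2.16. For Loxl2 the least moving probeset above the dim limit differed by -0.04, against 0.75 to 1.93 for 12 others. For Loxl3 it differed by 0.10, against 1.14 to 2.82 for 14 others. These probesets were picked after their values were seen, and which part of the transcript they cover is not stated in the annotation used here. The median over probesets gives such single probesets little weight.

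Loxl4 had the fewest probesets that were higher and the most that were dim. Of its 15 probesets 8 were dim, compared with 2 for Loxl2 and none for Lox, Loxl1 and Loxl3. Dim was defined on the mean over all arrays, so a rise in infarcted tissue could lift a probeset above the limit of 5.58. By sham mean alone, Lox (4.73 and 5.26), Loxl1 (5.54) and Loxl3 (4.98 and 5.57) also had probesets below that limit. The absence of dim probesets in these genes thus partly reflects their rise. The 2 largest differences of Loxl4, 1.29 and 1.17, came from probesets above the dim limit, with sham means of 5.69 and 6.26. Both were higher, and the largest fall (-0.53, from a sham mean of 5.50) was in a dim probeset that did not pass. A test for unequal probesets within a gene (limma diffSplice) called all 5 members, against 9.30% of genes. It treats the probesets of a gene as equally variable and called too many genes on simulated data in which they were not, so no weight is placed on its calls.

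Another 3 probesets carry the symbols of both Loxl3 and Htra2 and were left out of the gene value. They differed by -0.06, -0.08 and 0.09 between infarcted and sham tissue, unlike the 14 probesets of Loxl3 that were higher. With them added, Loxl3 was still higher.

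**Figure D2:**
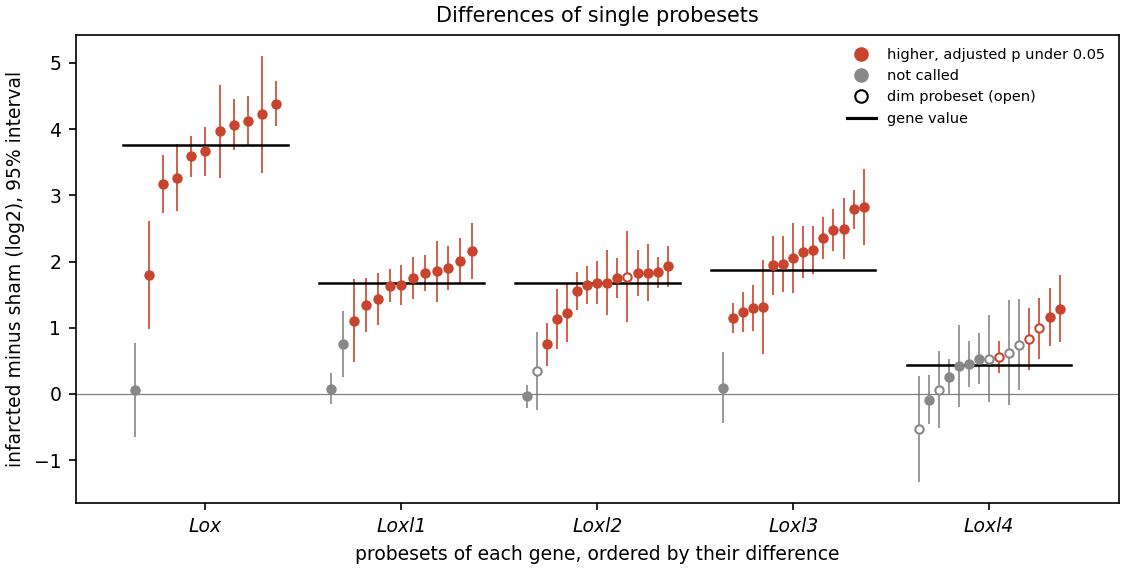
Difference between infarcted and sham arrays (log2, with 95% interval) for each probeset of the 5 genes, ordered within each gene; red marks probesets called higher, open symbols mark dim probesets and the black line is the change of the gene value. Lox, Loxl1, Loxl2 and Loxl3 each have 1 probeset at or near 0 beside a majority that was higher, and the Loxl4 probesets spread from -0.53 to 1.29.

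The rise of Lox exceeded that of every other member. On each array the value of another member was subtracted from that of Lox, and the difference was compared between groups with an exact two-sided permutation test over all 924 ways of choosing 6 of the 12 arrays. The smallest p this test can give is 0.00216. Relative to Loxl1, Lox rose by a further 2.08 (95% interval 1.74 to 2.42), relative to Loxl2 by 2.08 (1.63 to 2.53), relative to Loxl3 by 1.88 (1.51 to 2.25) and relative to Loxl4 by 3.31 (2.73 to 3.89). Each of these had the smallest possible p and an adjusted p of 0.00309 over the 10 pairs of members (exact permutation test), with all 6 infarcted arrays above all sham arrays.

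Loxl1, Loxl2 and Loxl3 rose by amounts that were not separated by this test. Their differences in change were 0.00 for Loxl1 against Loxl2 (95% interval -0.33 to 0.34, exact permutation p = 0.976), -0.19 for Loxl1 against Loxl3 (-0.62 to 0.23, exact permutation p = 0.351) and -0.20 for Loxl2 against Loxl3 (-0.61 to 0.22, exact permutation p = 0.314). The intervals leave room for a gap of about 0.6 in favour of Loxl3. With the mean over probesets in place of the median, Loxl3 did exceed Loxl1 by 0.39 (exact permutation, adjusted p = 0.00722) and Loxl2 by 0.49 (adjusted p = 0.00271). It also exceeded Loxl2 with dim probesets left out (by 0.25, adjusted p = 0.046) and without sham replicate 3 (by 0.35, adjusted p = 0.0108). Each of these 3 genes rose more than Loxl4, by 1.24, 1.23 and 1.43 respectively (exact permutation, adjusted p = 0.00309 for each).

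The members were also set against genes of their main substrate. The mean of Col1a1, Col1a2 and Col3a1, the chains of the fibrillar collagens that dominate scar tissue, went from between 8.06 and 8.69 in sham arrays to between 10.32 and 11.11 in infarcted arrays, a change of 2.22. Lox rose by 1.54 more than this mean (95% interval 1.16 to 1.92), with all 6 infarcted arrays above all sham arrays (exact permutation, adjusted p = 0.00309 over 10 such comparisons). Loxl1 rose by less than the mean of these 3 collagens, with a difference of -0.54 (-0.85 to -0.23, exact permutation adjusted p = 0.00309), and so did Loxl4 (-1.78, -2.30 to -1.26, adjusted p = 0.00309).

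Loxl2 and Loxl3 also rose by less than the mean of these 3 collagens, with differences of -0.54 (-0.96 to -0.12) and -0.35 (-0.64 to -0.06), both at an adjusted p of 0.0313 (exact permutation). These 2 calls were fragile. That for Loxl2 ended without infarcted replicate 3 (adjusted p = 0.0568), and that for Loxl3 ended without any of 6 arrays, namely infarcted replicates 1, 3 and 4 and sham replicates 2, 3 and 5 (adjusted p from 0.0505 to 0.0601), and with the mean over probesets (adjusted p = 0.0866).

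The direction for Loxl1, Loxl2 and Loxl3 depended on which collagens were taken. The changes of the 11 measured fibrillar collagen genes ran from -0.04 to 2.55 (median 0.71), the largest being those of Col1a1, Col3a1 and Col1a2. The mean of all 11 changed by 0.98, and this reference was added after the data were seen. Against it Loxl1 rose by 0.70 more (95% interval 0.43 to 0.98), Loxl2 by 0.70 more (0.37 to 1.03) and Loxl3 by 0.89 more (0.64 to 1.15), with all 6 infarcted arrays above all sham arrays (exact permutation, adjusted p = 0.00271 for each). Lox rose by 2.78 more than this mean (2.40 to 3.16, adjusted p = 0.00271), and Loxl4 by less (-0.54, -1.03 to -0.04, adjusted p = 0.0361).

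Fibroblasts are a main source of lysyl oxidases in the heart. Of 8 fibroblast markers 7 rose and none fell, with a median change of 0.57. Their mean level ranged from 9.23 to 9.36 in sham and from 9.81 to 10.09 in infarcted arrays, a change of 0.65, and none of the 8 was dim (a gene was called dim where its mean over the 12 arrays was under 5.26, the 30th percentile of gene values). Lox exceeded this change by 3.10 (95% interval 2.71 to 3.50), Loxl1 by 1.03 (0.75 to 1.30), Loxl2 by 1.02 (0.71 to 1.34) and Loxl3 by 1.22 (0.98 to 1.46), each with an adjusted p of 0.00309 (exact permutation). The difference for Loxl4 was -0.21 (-0.66 to 0.24, exact permutation adjusted p = 0.318).

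**Figure D3:**
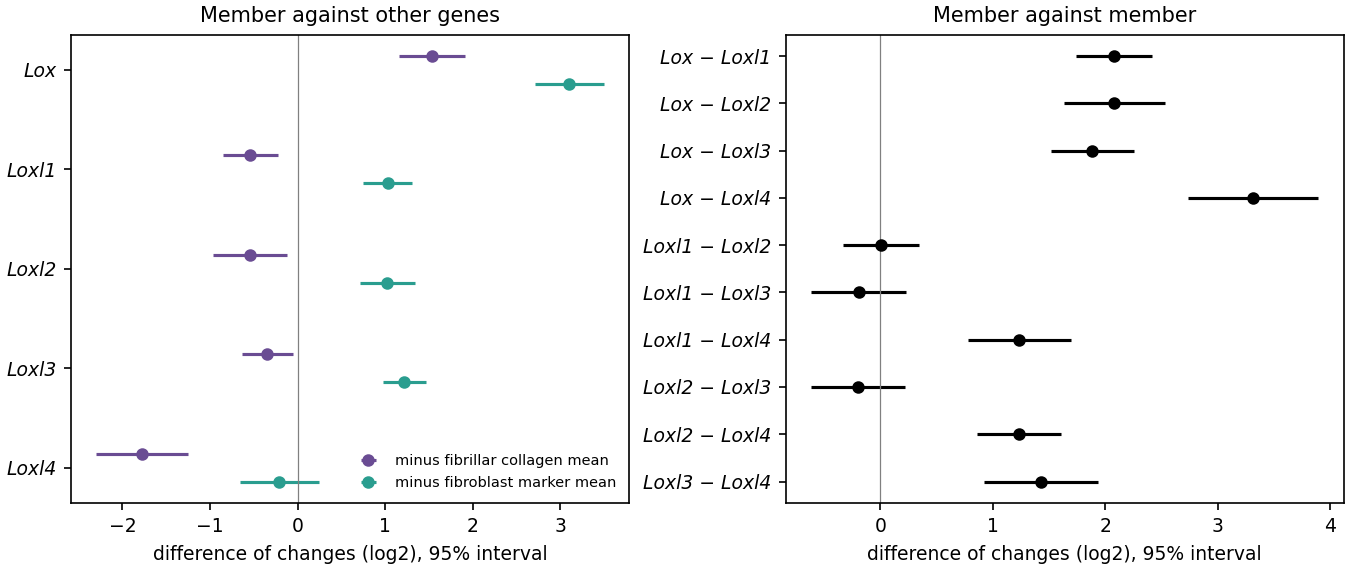
Differences between changes (log2, infarcted against sham, points with 95% intervals from the pooled spread within the groups). The left panel sets each member against the mean of Col1a1, Col1a2 and Col3a1 and against the mean of 8 fibroblast markers, and the right panel sets each member against each other member. Lox lies to the right of 0 in all 6 of its comparisons, and the intervals among Loxl1, Loxl2 and Loxl3 include 0.

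Among the substrates, 8 of 11 fibrillar collagen genes rose and none fell, with a median change of 0.71 against -0.04 over all genes. Of all genes, 10.1% were called higher and 10.2% lower, and each list count below is to be read beside these shares. Col1a1, which encodes the main chain of type I collagen, rose by 2.55 from 8.52 ± 0.24 to 11.07 ± 0.27 (SD, n = 6; adjusted p = 1.58e-08). Col3a1 rose by 2.07, Col1a2 by 2.04 and Col5a2, a chain of the type V collagen that starts fibrils, by 1.61. Of 16 elastic fibre genes 14 rose and 1 fell, with a median of 0.99. Eln, which encodes elastin, rose by 2.06 from 7.94 ± 0.14 to 9.99 ± 0.29 (adjusted p = 6.23e-08). The microfibril-associated genes Ltbp2 and Mfap5 rose by 3.16 and 2.37. Efemp1, which encodes fibulin-3, fell by 0.84 (adjusted p = 0.000747).

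Of 10 genes of lysyl oxidase activation, which process or hold the proenzymes, 7 rose and none fell, with a median of 1.05. The other 3 did not pass, namely Pcolce2 (0.13), Adamts14 (0.16) and Tll2 (-0.35, unadjusted p = 0.0227). Bmp1, the procollagen protease that also releases the propeptide of Lox, rose by 1.10 from 9.13 ± 0.14 to 10.23 ± 0.24 (adjusted p = 6.83e-06). Adamts2, which trims procollagen and also cleaves Lox, rose by 2.03. Postn (periostin) and Fn1 (fibronectin), matrix proteins that bind Bmp1 or Lox, rose by 3.08 and 2.62.

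Of 7 genes that supply copper, the metal of the active site, none rose and 1 fell in limma (0 and 2 at an unadjusted p under 0.05), with a median of -0.09. Over all genes 10.1% were called higher and 10.2% lower. The count of copper genes called was not stable. It ran from 1 to 4 called over 21 alternatives, with 1 higher and 2 lower without infarcted replicate 1 and 2 higher and 2 lower with the mean over probesets. The gene that fell was Cox17, whose product carries copper to cytochrome oxidase in mitochondria and not to secreted enzymes (-0.47, adjusted p = 0.00194). Atp7a, the pump that loads copper onto secreted enzymes, was not called (0.24, adjusted p = 0.233). Of 2 measured amine oxidases that also use copper but are unrelated to the family, neither was called, also at an unadjusted p under 0.05. Aoc3 differed by 0.42 (adjusted p = 0.572), but by 0.40 with dim probesets left out, where it passed (adjusted p = 0.00427). With probesets of several symbols added, 2 of the 2 were called higher in limma, Aoc3 by 0.50 (adjusted p = 0.0332).

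Of 16 enzymes and helpers that modify collagen before it is cross-linked, 10 rose and 1 fell, with a median of 0.38. Plod2, the lysyl hydroxylase that acts on collagen telopeptides and so sets which cross-links form, rose by 0.84 from 8.82 ± 0.07 to 9.66 ± 0.13 (adjusted p = 1.92e-06). The prolyl hydroxylase subunit P4ha3 rose by 2.28, and P3h3 rose by 1.003, while P3h4, which works with lysyl hydroxylation, fell by 0.35 (adjusted p = 0.0116). Among 5 other cross-linking enzymes Pxdn, the peroxidasin that cross-links type IV collagen, rose by 0.62 (adjusted p = 0.00364). Tgm2, a transglutaminase, rose by 0.30 (limma, adjusted p = 0.0357), but 10 of 21 alternatives ended this call. Tgm2 was not called without any 1 of 7 arrays, namely infarcted replicates 4, 5 and 6 and sham replicates 1, 2, 5 and 6 (adjusted p as high as 0.0819). The call also ended after median centring of each array (adjusted p = 0.0643) and with the replicate number as a block (0.0504). Without both infarcted replicates 4 and 5 the adjusted p was 0.164.

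The next 3 lists hold genes of pathways and factors linked to the lysyl oxidases, and their counts were not tested against each other. The shares over all genes were 10.1% higher and 10.2% lower. In TGF-beta signalling 6 of 13 genes rose and 1 fell, with a median of 0.34. The ligand genes Tgfb2 and Tgfb3 rose by 1.59 and 1.47, the target Ccn2 rose by 2.03 and the co-receptor Tgfbr3 fell by 0.35. The ligand gene Tgfb1 was not called in limma (0.29, adjusted p = 0.400). Nor were Smad2, Smad3, Smad4, Smad6 and Smad7 (-0.12 to 0.34), of which Smad7 had an unadjusted p of 0.0195. In the hypoxia response 3 of 13 rose and 2 fell, with a median of 0.04, but only 2 rose and 1 fell without infarcted replicate 6, without any 1 of sham replicates 1, 2, 3 and 4, or with the replicate number as a block. Hif1a, the oxygen-regulated transcription factor, rose by 0.58 and Car9 by 0.55 from a dim level (sham mean 4.86), while Pdk1 fell by 0.36. Of 7 genes of the Snail and Twist factors, to some of which Loxl2 and Loxl3 have been reported to bind, 3 rose and 1 fell (2 and 0 without infarcted replicates 4 and 5). Snai1 (0.15, adjusted p = 0.158), Snai2 (0.23, adjusted p = 0.197) and Twist2 (0.17, adjusted p = 0.0956) were not called in limma. Twist1 rose by 0.58 (adjusted p = 0.00146), but with the mean over probesets it differed by 0.11 and was not called (adjusted p = 0.301). Zeb2 rose by 0.56 and Snai3 fell by 0.54, a call that did not hold without infarcted replicates 4 and 5 (adjusted p = 0.0607).

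Markers of other cells that can express the family moved as follows, beside 10.1% of all genes called higher and 10.2% lower. Of 6 myofibroblast markers 5 rose, among them Cthrc1 (2.39), Meox1 (1.69) and Actn1 (1.13), and their mean level went from between 7.68 and 7.89 to between 8.74 and 9.10. Of 8 smooth muscle and pericyte markers 4 rose, among them Cnn1 (1.05), Pdgfrb (0.51) and Cspg4 (0.41), with a mean level from 8.48 to 8.80 in sham and from 8.83 to 9.03 in infarcted arrays. The other 4 were not called in limma, namely Myh11 (-0.14), Kcnj8 (-0.07), Rgs5 (0.02) and Smtn (0.20, unadjusted p = 0.0269). Of 8 endothelial markers none was called in limma (2 were higher at an unadjusted p under 0.05), and their mean level ranged from 9.64 to 9.89 and from 9.63 to 9.997. From 1 to 2 of them were called higher without sham replicate 5, without infarcted replicate 2, in limma-trend, a fit that lets the spread depend on the signal, or with the mean over probesets. Of 8 macrophage markers 7 rose, with levels from 7.64 to 7.89 in sham and from 8.41 to 8.81 in infarcted arrays. Lgals3 rose by 1.86, Mpeg1, which had 1 probeset, by 1.66 and Adgre1 by 0.91. The remaining macrophage marker, Cd163, differed by -0.41 and was not called (limma, unadjusted p = 0.0261, adjusted p = 0.0987). Of 6 cartilage and tendon markers 5 rose, among them Comp (3.74), Tnmd (1.35) and Acan (1.52), with a mean level from 5.25 to 5.58 and from 6.68 to 7.15. None of 6 epicardial, 6 adipocyte or 6 skeletal muscle markers was called in limma, also at an unadjusted p under 0.05. The mean level of the 7 ventricular cardiomyocyte markers was lower on every infarcted array (12.998 to 13.09) than on every sham array (13.13 to 13.20). None of these 7 markers was called in limma (4 were lower at an unadjusted p under 0.05), but under 6 of 21 alternatives from 1 to 5 were called lower. Among these was Myh6, a myosin heavy chain (-0.18, adjusted p = 0.0688), which passed without sham replicate 3 (-0.22, adjusted p = 0.0339), after median centring of each array (-0.23, adjusted p = 0.0255) and in limma-trend (adjusted p = 0.0111). Of 5 atrial markers Nppa rose (2.04), a natriuretic peptide gene that stressed ventricles also express. The part of these cells in the rise of the members was not tested.

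**Figure D4:**
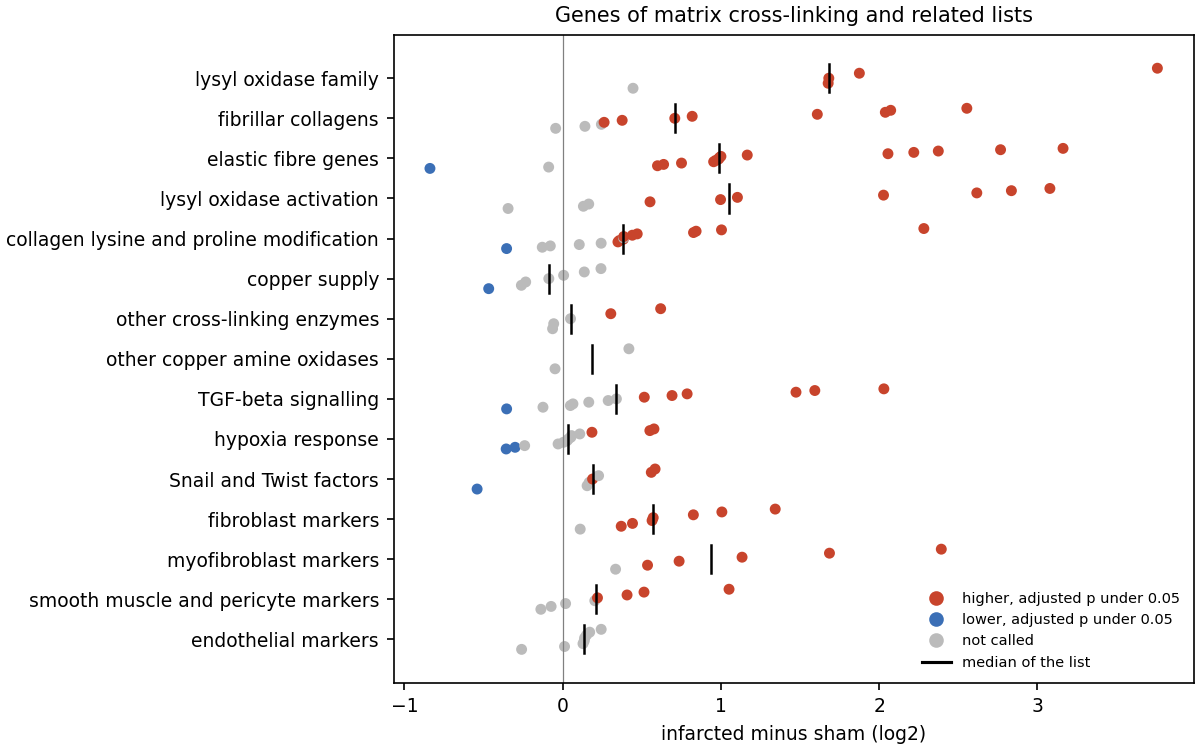
Change between infarcted and sham arrays (log2) of each measured gene in the lysyl oxidase family and in 14 lists, with red for genes called higher, blue for genes called lower, grey for genes not called and a black line at each median. The lists of collagens, elastic fibre genes and activation lie mostly to the right of 0, and the copper supply list lies around 0.

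Genes whose values followed a member within the groups were sought among 12868 genes that had at least 3 probesets and were not dim, by Pearson r of the deviations from the group means over the 12 arrays. With so many genes and so few arrays, high values of r arise easily, and they are given as a description. The closest to Lox were Rps6ka1 (0.88), H2ac7 (0.88) and Sfrp1 (0.87), of which Sfrp1, a secreted Wnt antagonist, also rose (1.81). Closest to Loxl1 were Tmem145 (0.92), Eml2 (0.89) and Lhfp (0.87), and closest to Loxl2 were Prrg1 (0.90), Pgp (0.88) and Foxb1 (0.86). Loxl3 was nearest to Panx2 (0.94), Lxn (0.91) and Eno1 (0.90), and Loxl4 to Chpf2 (0.90), Fzd2 (0.88) and Hlx (0.88). No gene appeared for more than 1 member.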

How the data were processed

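Total RNA of 12 heart samples was hybridised to biotin-labelled one-colour arrays, 1 array per sample. Affymetrix Power Tools is listed, with no version, in the submitters' processing notes. The normalization method is not given in the sources used here. Deposited values were read as log2 signals from their range (1.52 to 14.37), since the base is not stated. Array medians were nearly equal, so a shift of all genes together would not be seen, and fold changes understate those of genes near background. Of 241576 probesets 212097 had 1 gene symbol, and 2742 of 20416 symbols were updated through a table of RefSeq genes (assembly GRCm38.p6). Genes were not filtered for dim signal.

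The infarcted and sham groups were fitted in limma 3.58.1 under R 4.3.3, using eBayes on the output of lmFit. Tests were two-sided, and p-values were adjusted by Benjamini-Hochberg over the whole set of genes, or of probesets, against a threshold of 0.05. Exact permutation tests were two-sided. Intervals for differences between members use the pooled spread within the groups. Scripts were tested on simulated data. Figures were drawn with matplotlib 3.10.9. Beside the members, text names the up to 3 called genes of each list with the smallest p and the first in the other direction, or, in a list without a called gene, the one with the smallest p. It also names Col1a1, Col1a2, Col3a1, Eln, Bmp1 and Plod2, and the 3 genes most like each member. Outside this rule are Atp7a, named for its role, and probesets picked by their values. Also outside it are Pcolce2, Adamts14, Tll2, Snai1, Snai2, Twist2 and Cd163, named as the uncalled genes of their lists. Tgfb1, Smad2, Smad3, Smad4, Smad6, Smad7, Myh11, Kcnj8, Rgs5 and Smtn are named for the same reason. Lum, Thy1, Tcf21, Cdh5 and Lrrn4 fall under the rule but enter only through the counts and levels of their lists. Members and lists were chosen with earlier results of these data known. Some list members were not analysed here. The number of arrays limits the precision.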

Additional observations from a re-analysis of the deposited data

Results flagged for a closer look

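In 6 of 132 groups of 6 arrays examined, 1 array lay apart from the rest, by the ratio of its gap to the nearest array and the group's range (Dixon's criterion at the 95% level, which chance meets in about 1 of 20 groups). Lox had such an array in sham hearts (ratio 0.759), replicate 6 at 7.12 against 6.51 for the nearest. The difference of Loxl1 and Loxl4 had one in sham replicate 5 (0.671), at 1.88 against 2.55. Col1a2 had one in sham replicate 1 (0.633), at 8.14 against 8.58. In the infarcted group the criterion was met by Actn1 on replicate 1 (0.697), at 9.26 against 9.60, by Adipoq on replicate 5 (0.658), at 6.59 against 4.47, and by Tnmd on replicate 1 (0.642), at 6.55 against 6.21.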

How the results depend on the processing

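Lox, Loxl1, Loxl2 and Loxl3 were higher under each of the 21 alternatives, with changes from 3.30 to 3.88, 1.501 to 1.75, 1.39 to 1.75 and 1.61 to 1.93. Loxl4 ranged from 0.35 to 0.62. It passed with dim probesets left out (0.62), with the mean over probesets (0.52) and without infarcted replicates 4 and 5 (0.62, adjusted p = 0.0387), and leaving out 1 array gave 0.35 to 0.59. Loxl1 minus Loxl3 passed with the mean (-0.39). Loxl2 minus Loxl3 passed with the mean (-0.49) and with dim probesets left out (-0.25), and ranged from -0.35 to -0.10 with 1 array left out. Loxl2 minus the collagen mean did not pass without infarcted replicates 4 and 5 (-0.57, adjusted p = 0.0655; -0.67 to -0.46 with 1 array left out). Loxl3 minus the collagen mean did not pass there either (-0.32, adjusted p = 0.0952), nor with the mean over probesets (-0.27; -0.44 to -0.28 with 1 array left out). The cause of these changes was not tested. With all 11 fibrillar collagens as the reference, added after the data were seen, Loxl1, Loxl2 and Loxl3 turned to 0.70, 0.70 and 0.89 above the collagens. Of 557 values 536 were rated the same as in the main fit. For a change or difference this means that its call was kept. A count was rated the same where it stayed near the main count, so 5 members called instead of 4 was rated the same. Among other named genes, Mylpf, a dim skeletal muscle gene, turned from 0.25 (not called) to -0.30 with dim probesets left out (adjusted p = 0.0322). All genes called numbered 4124, and from 3123 to 5674 under the alternatives. With each array centred on its median, 1748 were higher and 2956 lower, and with quantile normalization 1815 and 2653, against 2050 and 2074. The same-numbered arrays of the groups did not deviate together (correlations from -0.05 to 0.10 over genes), and with the replicate number as a block 4 members and 3802 genes were called. The block ended no call of a member. Without infarcted replicates 4 and 5, an alternative for the lists added after the data were seen, 7 fibrillar collagens, 14 elastic fibre genes, 6 activation genes and 7 fibroblast markers were higher, while the Snail and Twist factors went from 3 higher and 1 lower to 2 and 0 and the other cross-linking enzymes from 2 higher to 1.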

Other observations

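In sham hearts Loxl2 and Loxl4 varied together, with a Pearson r of 0.93 (exact permutation p = 0.00139, adjusted p = 0.0278 over the 20 correlations) and a Spearman rho of 1 (exact permutation p = 0.00278, adjusted p = 0.0556) over 6 arrays. Without the 2 arrays farthest from the median of Loxl2, r was 0.998, a value that rests on few arrays. In infarcted hearts r was 0.33 and rho was -0.26, and the difference between the groups was not tested. Of the 15 probesets of Loxl4 8 were dim, and both genes were read from the same arrays.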
